A study of Mus musculus with 66 samples.

Results

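Lungs of Nrf2-/- (KO) mice taken on postnatal day 2 (PND2) were compared with lungs of Nrf2+/+ (WT) mice of the same age. The 6 libraries, 3 KO and 3 WT, were chosen by their titles out of 66 arrays that cover 11 ages from embryonic day 13.5 to PND42 in both genotypes, and all 45037 non-control probe sets were tested. Each postnatal library was made from total RNA of the homogenized lung of 1 mouse, fed AIN-76A diet as were the dams. The sources used here give neither the strain nor the construction of the Nrf2 allele, and the labels name no Cre or cell type that would limit the deletion. The values are Affymetrix probe set signals, quantile normalized over the 66 arrays and given as log2(signal + 16), so that a difference of 1 is a change of about 2-fold and the lowest possible level is 4. In homogenized tissue, fewer cells of a type and less RNA per cell cannot be told apart.

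Nrf2, the protein of the gene Nfe2l2, is a transcription factor that Keap1 and the Cul3 ubiquitin ligase keep at a low level until oxidants or electrophiles modify Keap1. It then pairs with small Maf proteins on antioxidant response elements near genes for glutathione synthesis and conjugation, for the reduction of quinones and peroxides, for NADPH supply and for heme breakdown. In the lung it is known for the defence against inhaled oxygen and oxidants, and the newborn lung is in the saccular stage, shortly after the change to breathing air.

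The promoters of 3 targets that were lower in KO lungs are shown because Gsta3 and Mgst1 hold the core of the antioxidant response element near the start site, while Aox3, the only 1 of the 9 falling targets that passed under every setting tried, does not. The sequences are RefSeq promoters of the GRCm38.p6 build, 250 bases before to 50 after the start site, written 5′ to 3′ on the gene's strand, at chr1:21240335-21240634 for Gsta3, chr6:138140277-138140576 for the first listed start of Mgst1 and chr1:58112886-58113185 for Aox3, each on the + strand. Capitals mark the core motif TGACNNNGC, searched on both strands.
Gsta3: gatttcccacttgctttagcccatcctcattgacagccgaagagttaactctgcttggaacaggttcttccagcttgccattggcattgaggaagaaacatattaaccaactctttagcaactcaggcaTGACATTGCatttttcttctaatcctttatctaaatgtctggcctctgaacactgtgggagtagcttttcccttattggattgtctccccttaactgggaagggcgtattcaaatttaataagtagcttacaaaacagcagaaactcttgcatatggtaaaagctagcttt
Mgst1: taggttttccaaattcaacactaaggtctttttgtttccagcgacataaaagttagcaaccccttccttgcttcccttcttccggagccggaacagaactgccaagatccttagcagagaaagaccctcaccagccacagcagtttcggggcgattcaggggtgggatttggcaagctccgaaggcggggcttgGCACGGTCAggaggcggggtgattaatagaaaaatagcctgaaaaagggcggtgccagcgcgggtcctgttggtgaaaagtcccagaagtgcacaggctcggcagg
Aox3: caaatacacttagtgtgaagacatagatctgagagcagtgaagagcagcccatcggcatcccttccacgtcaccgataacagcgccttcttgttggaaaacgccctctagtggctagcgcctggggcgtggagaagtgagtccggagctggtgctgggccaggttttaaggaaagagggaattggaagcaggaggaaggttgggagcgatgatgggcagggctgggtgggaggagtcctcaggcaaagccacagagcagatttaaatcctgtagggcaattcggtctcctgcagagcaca
The match in Gsta3 lay on the + strand, starting at base 130 of the window, and that in Mgst1 lay on the - strand, starting at base 195. The window of the other listed start of Mgst1, not printed here, held no match. Of the 30 measured Nrf2 targets with a window, 8 held the core in 1 or more of their windows (26.7%), against 3781 of all 27025 genes (14%). Counted by window, 9 of 40 target windows held it (22.5%), against 4071 of all 32851 windows (12.4%). Of the 7 falling targets with a window 2 held it (28.6%), Gsta3 and Mgst1, and Akr1b8, Aox1, Aox3, Gpx2 and Gstm1 did not. A match is a description of the letters and shows no binding, and Aox3 without one says only that these letters are not in this window.

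Nfe2l2 itself was at 4.88, 4.95 and 5.06 in the KO libraries, against 11.63, 11.74 and 11.88 in the WT libraries. All 3 KO libraries lay close to the floor of the scale and far from every WT library, and the difference was -6.78 ± 0.34 (log2, SE; adjusted p = 9.0e-21, limma with Benjamini-Hochberg adjustment over all probe sets). The genotype labels of the 6 libraries therefore fit the level of this transcript. A second, dim probe set of the gene differed by 0.51 and did not pass.

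Over the whole array 2683 of 45037 probe sets (5.96%) passed an adjusted p of 0.05 at PND2, 1225 higher in KO (2.72%) and 1458 lower (3.24%). The share of higher calls was 45.7% under quantile normalization, 16% on the deposited signals as they stand, 63.9% after subtracting array medians and 39.1% at a common trimmed mean, so no statement on the balance of directions holds over the scalings. The median difference of all probe sets was 0.01, and it moved to 0.11 after subtracting array medians. With 1 probe set per gene, the one with the highest mean level, 566 of 18193 genes were higher (3.11%) and 516 lower (2.84%), and the 3 KO libraries lay wholly above the 3 WT libraries at 10.1% of genes and wholly below them at 7.94%. These p-values borrow the spread of all 22 groups. The median SD between replicates was 0.29 in KO and 0.23 in WT at PND2, and 0.18 to 0.37 in the other groups, and the same model on the 6 PND2 arrays alone called 36 probe sets (6197 at an unadjusted p under 0.05). An exact permutation test of 3 against 3 cannot go below p = 0.1. Leaving out KO library 1 lowered the number of calls to 929, leaving out WT library 2 lowered it to 1512, and 567 probe sets were called in all 6 fits that left out 1 library.

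The 6 libraries differed from each other in the levels of marker genes of tissues that lie beside the lung. The origin of these transcripts was not tested. Their values stand before the results because several of the largest differences lie among such genes. The mean level over 14 measured thymocyte genes was 10.82, 7.52 and 9.90 in the KO libraries, against 6.45, 6.27 and 5.94 in the WT libraries. Every KO library was above every WT library, with KO library 2 much lower than the other KO libraries. Over 9 liver genes the mean was 5.08, 5.61 and 11.03 in KO libraries, against 5.20, 14.05 and 9.99 in WT libraries. Liver transcripts were thus near the floor in KO libraries 1 and 2 and in WT library 1, high in KO library 3 and WT library 3 and highest in WT library 2, and the groups overlapped.

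Heart muscle genes averaged 10.33, 9.90 and 12.52 in KO, against 13.35, 10.80 and 11.78 in WT. The fat list was at 6.57, 5.98 and 10.34 in KO, against 11.15, 7.14 and 10.14 in WT, and squamous epithelium genes were at 6.39, 5.38 and 6.51 in KO, against 10.62, 6.53 and 6.0 in WT. WT library 1 was the highest library for heart, fat and squamous genes. Among the defining markers, Ucp1 of brown fat lay at 4.71, 4.23 and 9.72 in KO, against 11.04, 6.18 and 10.34 in WT, and Alb of liver at 5.56, 7.50 and 13.77 in KO, against 6.18, 14.64 and 12.90 in WT. Lung markers were present in every library: the 14 type 2 cell genes averaged 12.07, 12.57 and 12.29 in KO, against 11.87, 12.15 and 12.28 in WT. The most abundant of them, such as the surfactant protein Sftpc and the club cell secretoglobin Scgb1a1, lie near the top of the scale, where signals can be compressed. Compression was not tested, so the differences of these genes are not given, although they remain in their lists. The club cell list was lower in library 2 of both genotypes, at 12.33, 11.36 and 12.71 in KO, against 12.67, 11.71 and 12.74 in WT.

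**Figure D1:**
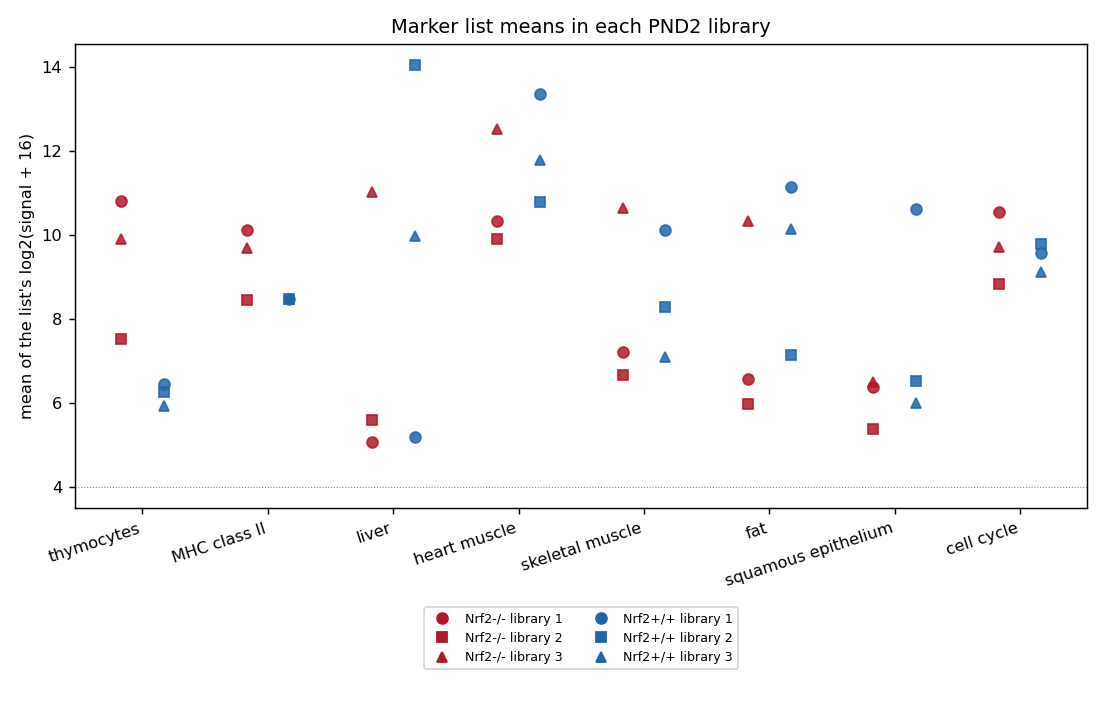
Mean level, log2(signal + 16), of 8 gene lists in each of the 6 PND2 libraries, with KO (Nrf2-/-) points left of WT (Nrf2+/+) points, 1 marker shape per library number and the dotted line at the floor of the scale. Thymocyte genes are above every WT library in all 3 KO libraries, while liver genes span 5.08 to 11.03 in KO and 5.20 to 14.05 in WT.

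Of the 14 thymocyte genes 11 rose in KO lungs, 1 fell and 2 did not pass, beside 3.11% higher and 2.84% lower among all genes. Their median difference was 3.50, beside 0.01 over all genes. Cd8b1, a chain of the CD8 co-receptor, was at 11.75, 7.56 and 10.82 in KO, against 5.22, 5.27 and 5.18 in WT, a 28.2-fold rise (adjusted p = 0.0029, limma). Ccr9, the receptor for the thymic chemokine Ccl25, had 12.76, 8.53 and 12.16 in KO, against 6.72, 5.91 and 6.26 in WT, a 28.9-fold rise. Rag1, a recombinase subunit that cuts antigen receptor genes in immature lymphocytes, was at 12.99, 9.53 and 12.37 in KO, against 7.89, 7.13 and 7.36 in WT. In each of these genes the groups did not overlap, and KO library 1 was the highest and KO library 2 the lowest KO library, as in the list mean. The pre-T-cell receptor chain Ptcra (2.20, adjusted p = 0.077) and the DNA polymerase Dntt (2.02, adjusted p = 0.13) had positive differences that missed the threshold, and the member that fell was Cd1d1 (-0.74), an antigen-presenting molecule that many cell types other than thymocytes also carry, and it passed in only 1 of the 6 fits that left out 1 library.

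The number of thymocyte genes that rose was 1 without KO library 1, 7 without KO library 3, WT library 2 or WT library 3, and 10 or 11 without either of the other libraries. It was 0 on the 6 arrays alone and 0 without KO libraries 1 and 3, where the median difference was 1.51. At the adjacent ages the same list averaged 5.36 to 5.60 in KO and 5.30 to 5.63 in WT at PND1, 5.72 to 6.37 in KO and 6.19 to 7.05 in WT at PND3, and 6.55 to 7.13 in KO and 5.81 to 6.55 in WT at PND4. The PND2 KO libraries were above all of these. High libraries also occurred at ages further away. The highest library was at 6.95 in KO and 12.06 in WT at PND14, at 6.02 in KO and 9.71 in WT at PND0, and at 8.55 in KO and 8.94 in WT at E18.5. The median difference of the 12 thymocyte genes called at PND2, signed by the PND2 direction, was -1.91 at PND0, -2.50 at PND14 and -0.82 at PND42.

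The 15 largest rises at PND2 were, by size, Trim12c, Prss16, Tbata, Ccr9, Cd8b1, Ccl25, Trbv1, H2-Ea, Cd8a, Rag1, Cd3d, Bcl11b, Cd3g, Cd3e and Slc46a2, and 7 of these genes are on the thymocyte list. Prss16, a protease of thymic epithelial cells, was at 12.66, 8.90 and 12.10 in KO, against 6.27, 6.45 and 5.87 in WT, a 32.5-fold rise (adjusted p = 8.7e-04, limma). Ccl25, the chemokine by which the thymic stroma attracts progenitors, had 11.64, 7.35 and 10.83 in KO, against 4.57, 5.71 and 5.46 in WT. Both are made by stromal cells rather than T cells, and in both the KO libraries took the order of the thymocyte list. None of the 6 genes of the MHC class II list passed, although all had positive differences (median 1.02). Outside that list the class II genes H2-Ea and H2-DMb2 were called higher. Cd74, the invariant chain, was at 12.76, 10.59 and 12.24 in KO, against 10.59, 10.59 and 10.64 in WT. In Prss16, Ccl25 and Cd74 the KO libraries moved with the thymocyte list, and the part of thymic tissue in their differences was not tested. Trim12c, which heads the rises, did not follow that list.

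Of 41 genes listed as Nrf2 targets 36 were measured, and 9 of these fell in KO lungs while none rose, beside 2.84% lower and 3.11% higher among all genes. The median difference over the 36 was -0.30, with 26 negative, against 0.01 over all genes, and the 3 KO libraries lay below the 3 WT libraries at 14 of the 36, beside 7.94% of all genes. Glutathione and drug conjugation supplied 4 of the falls. Gsta3, an alpha class glutathione S-transferase whose promoter is shown above, was at 6.42, 6.25 and 6.85 in KO, against 8.51, 9.73 and 8.64 in WT. Its groups did not overlap, and the fall was 5.48-fold (-2.45 ± 0.37, SE; adjusted p = 1.6e-05, limma). Gstm1, a mu class transferase, had 10.29, 11.07 and 10.38 in KO, against 11.17, 11.44 and 11.40 in WT (-0.76; adjusted p = 0.022), without overlap of the groups. Mgst1, the microsomal transferase, had 13.06, 13.32 and 13.32 in KO, against 13.46, 13.94 and 13.85 in WT (-0.52; adjusted p = 0.033). Abcc1, which exports glutathione conjugates, had 8.66, 8.78 and 8.59 in KO, against 9.31, 9.01 and 9.34 in WT (-0.54; adjusted p = 0.0059).

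The other 5 falls were redox and heme enzymes. Aox3, an aldehyde oxidase, was at 7.09, 7.26 and 7.16 in KO, against 8.79, 9.15 and 9.16 in WT, a 3.64-fold fall (adjusted p = 4.1e-06, limma), and the SD between replicates was 0.09 in KO and 0.21 in WT. Its neighbour Aox1 had 5.94, 5.71 and 6.29 in KO, against 7.78, 7.05 and 7.35 in WT. Gpx2, a glutathione peroxidase of epithelia, was close to the floor in KO at 4.73, 4.79 and 5.32, against 7.23, 6.70 and 7.44 in WT (-2.18; adjusted p = 0.001, limma). With KO so near the floor, the size of the fall depends on the added constant, and it ran from -3.01 to -1.25 over the settings tried. Akr1b8, an aldo-keto reductase, had 7.93, 8.29 and 7.76 in KO, against 9.12, 8.87 and 8.86 in WT. Hmox1, which breaks down heme, had 7.55, 7.44 and 7.46 in KO, against 7.70, 8.66 and 8.22 in WT, and its highest KO library was only slightly below its lowest WT library.

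**Figure D2:**
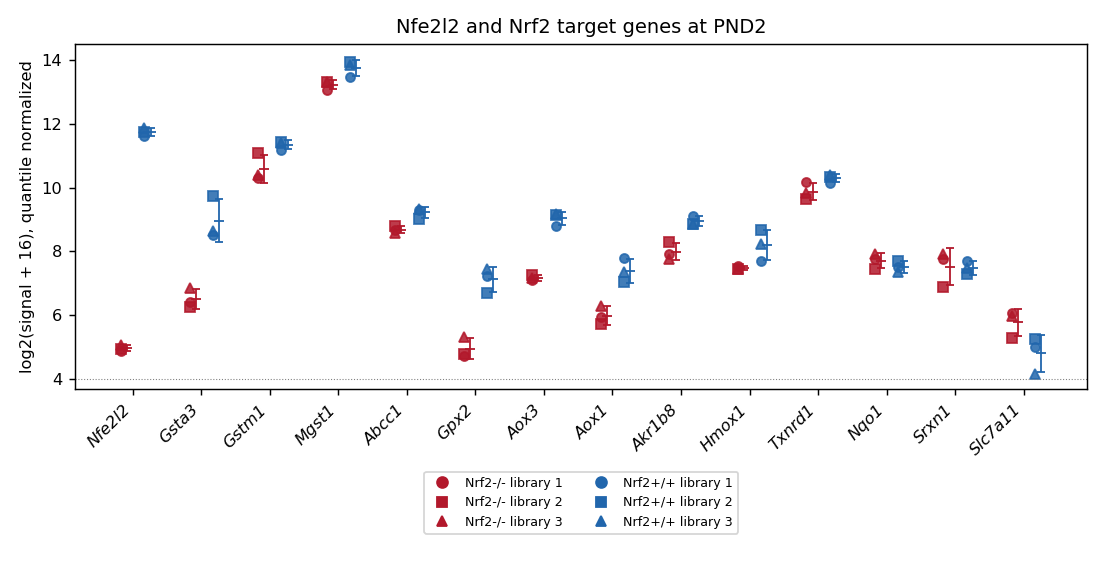
Level, log2(signal + 16), of Nfe2l2, of the 9 Nrf2 targets that fell and of 4 targets that did not pass, in each PND2 library, with KO (Nrf2-/-) points left of WT (Nrf2+/+) points and bars for mean ± SD of 3 libraries. Nfe2l2 lies between 4.88 and 5.06 in KO and between 11.63 and 11.88 in WT, Gsta3, Gpx2 and Aox3 separate widely, and Nqo1 and Srxn1 overlap.

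Several targets that are commonly read as marks of Nrf2 activity did not pass at PND2. Nqo1, the quinone reductase, was at 7.76, 7.46 and 7.92 in KO, against 7.50, 7.69 and 7.34 in WT, with a difference of 0.20 ± 0.21 (SE). Srxn1, sulfiredoxin, differed by 0.03 ± 0.24, and Gclm, the modifier subunit of glutamate-cysteine ligase, by 0.15 ± 0.14. Txnrd1, thioredoxin reductase, was at 10.16, 9.63 and 9.83 in KO, against 10.15, 10.33 and 10.38 in WT, and missed the threshold narrowly (-0.41; adjusted p = 0.051, limma). Slc7a11, the cystine importer, had the largest positive difference of the targets (0.96; adjusted p = 0.061), with KO at 6.07, 5.27 and 5.96 and WT at 5.0, 5.25 and 4.16, near the floor. Enzymes of NADPH supply had small negative differences, of -0.39 for Pgd, -0.33 for Me1 and -0.10 for Taldo1, and none passed. These intervals do not show that the genotypes act alike.

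The number of targets that fell was 6 to 11 when 1 library was left out, 6 without WT library 2 or WT library 3 and 11 without WT library 1, and 4 after subtracting array medians. The median of the 36 targets stayed negative but moved to -0.13 without WT library 2, -0.14 after subtracting array medians, -0.12 with thymocyte and liver list means as covariates and -0.08 with 5 tissue list means. Gsta3, Aox3, Aox1, Gpx2, Akr1b8 and Abcc1 passed in all 6 fits that left out 1 library. Hmox1, Gstm1 and Mgst1 each lost the threshold without KO library 1, WT library 2 or WT library 3. Hmox1 also lost it without KO library 2, where 4 redox falls remained. Without KO library 3, where 3 conjugation falls remained, Gstm1 or Mgst1 lost it as well. With the mean levels of the thymocyte, liver, heart, squamous and fat lists as covariates 3 targets passed, 1 of conjugation and 2 redox enzymes. With the thymocyte and liver means alone 7 passed, 1 of conjugation and 6 redox enzymes. The median of the conjugation list was -0.23 in the main fit, 0.02 with the 5 means and 0.00 with the thymocyte and liver means. That of the redox list was -0.34, -0.15 and -0.19 in the same order. Only Aox3 among the 9 passed on the 6 arrays alone (adjusted p = 0.021, limma).

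Of 23 measured antioxidant enzymes outside the Nrf2 target lists, 3 fell and 1 rose, beside 2.84% lower and 3.11% higher among all genes. Their median difference was -0.16, with 16 negative, and the difference from the target lists was not tested. Sod1, the cytosolic superoxide dismutase, was at 12.28, 12.39 and 12.31 in KO, against 12.83, 13.05 and 12.67 in WT (-0.52; adjusted p = 0.0014, limma). Gsto1 and Gstz1, glutathione transferases of the omega and zeta classes, differed by -1.33 and -0.70, but each had 1 WT library far above the others, at 14.28 in WT library 1 for Gsto1 and 10.06 in WT library 2 for Gstz1, the libraries with the highest squamous and liver list means. Of the 3 falls only that of Sod1 passed without KO library 1, and none passed after subtracting array medians. Glrx2, a mitochondrial glutaredoxin, was 0.27 higher, and it missed the threshold in 5 of the 6 fits that left out 1 library. None of the 10 genes for Nrf2 partners and regulators passed: Keap1 differed by 0.12 ± 0.12, Cul3 by 0.17 ± 0.10 and Bach1, a repressor that competes for the same elements, by 0.08 ± 0.13.

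The largest falls after Nfe2l2 were Krt13, Krt4, Sbf2, Trim34a, Marco, Hsd17b2, Trim5, Lypd6, Gsta3, Ndel1, Sult1d1, Gpx2, Sh3pxd2b and Myo1f. Krt4 and Krt13, keratins of stratified epithelia such as the oesophagus, led the list on the level of WT library 1: Krt13 was at 4.82, 4.47 and 4.74 in KO, against 12.50, 7.24 and 5.72 in WT, and neither passed without WT library 1 or without KO library 1. Hsd17b2 and Sult1d1, a steroid dehydrogenase and a sulfotransferase, had their highest level in WT library 2 (9.50 and 9.36), the library with the highest liver list, and neither passed without it, nor did Hsd17b2 without KO library 1 or KO library 2. Lypd6, a membrane-anchored protein of the Ly6 family, was by contrast even within each genotype, at 6.20, 5.93 and 6.31 in KO, against 8.74, 8.52 and 8.59 in WT, and its 5.53-fold fall passed under every setting tried (largest adjusted p = 0.014, limma).

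Macrophage genes supplied 4 falls among 12 measured and no rise, with a median of -0.59, beside 2.84% lower among all genes. Marco, a scavenger receptor of macrophages, was at 4.5, 5.60 and 4.33 in KO, against 6.51, 9.16 and 6.93 in WT (-2.72; adjusted p = 9.3e-05, limma), and it passed in each fit leaving out 1 library. Its KO level is near the floor, and the difference ran from -3.92 to -1.66 over the settings tried. Siglecf, a lectin of alveolar macrophages, had 5.55, 5.18 and 4.19 in KO, against 5.81, 6.28 and 6.75 in WT. Csf1r, the receptor for the macrophage growth factor, fell by 0.58 and the lysosomal protein Cd68 fell by 0.64. Lyz2 (-0.02 ± 0.35), Mrc1 (-0.29 ± 0.16) and Chil3 (-0.82 ± 0.56) did not pass. Of the 12 macrophage genes 11 had negative differences. The count of falls was 2 without KO library 1, WT library 2 or WT library 3, and 1 after subtracting array medians. Neutrophil and acute inflammation genes had a median of -0.70 over 15 measured, and none passed; Elane, the neutrophil elastase, was at 4.67, 4.73 and 4.72 in KO, against 5.24, 8.23 and 5.22 in WT.

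All 10 measured interferon response genes had positive differences (median 0.79), of which 2 passed. Among all genes 3.11% were called higher, 9436 of 18193 had positive differences, and the median was 0.01. Irf7, a transcription factor of the type I interferon response, was at 8.82, 8.11 and 8.18 in KO, against 7.84, 7.57 and 7.08 in WT (0.88; adjusted p = 0.037, limma). Usp18, which removes ISG15 from proteins, was at 8.52, 8.20 and 8.20 in KO, against 7.32, 7.72 and 7.45 in WT (0.81; adjusted p = 0.026). Oasl2 (1.03), Rsad2 (0.97) and Ifit3 (0.86) had differences of like size that did not pass. The 2 rises became 0 without KO library 1 or WT library 3, 1 without WT library 2, 0 on deposited signals or at a common trimmed mean, and 0 with the thymocyte and liver list means as covariates, where the median of the list was 0.45.

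Genes that respond to glucocorticoids and stress were higher in part: of 12 glucocorticoid response genes, Per1, Fkbp5 and Ddit4 rose and none fell, beside 3.11% higher among all genes. The list median was 0.43, and it was 0.06 without KO library 2 and 0.68 without KO library 1. Per1, a clock gene that glucocorticoids also induce, was at 9.20, 10.26 and 9.44 in KO, against 8.37, 8.19 and 8.44 in WT, a 2.46-fold rise (adjusted p = 0.0023, limma). Ddit4, an inhibitor of mTORC1 signalling, was at 10.89, 10.93 and 11.24 in KO, against 10.33, 9.87 and 10.31 in WT. Fkbp5, a co-chaperone of the steroid receptor, rose by 1.02 and missed the threshold without KO library 3, WT library 1 or WT library 3 and without KO library 1. Tsc22d3 (0.60), Zbtb16 (0.57) and Klf9 (0.41) did not pass. Of the 12 differences 9 were positive and 3 negative, and the largest in size was a negative one, -1.72, which did not pass. Per1, Fkbp5 and Ddit4 differed by -0.57, -0.60 and -0.84 at PND1. Their differences were 2.10, 0.44 and 0.88 at PND3, and -0.05, -0.17 and -0.61 at PND4. Of the clock genes only Per1 and Arntl passed among 14, the immediate early genes gave rises of Egr1 and Zfp36 among 14, and cholesterol synthesis gave rises of Idi1 and Mvd among 11, each beside 3.11% higher among all genes. Of these Per1 and Zfp36 passed in all 6 fits that left out 1 library, and Arntl, Egr1, Idi1 and Mvd did not. The hour of tissue collection is not given in the sources used here.

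Each list of resident lung cell genes had 1 call or none. Over all genes 3.11% were called higher and 2.84% lower, so lists of this size would hold few calls in any case. None of 14 surfactant and type 2 cell genes passed (median 0.16), nor any of 14 type 1 cell genes (0.15), 9 ciliated cell genes (-0.14), 10 smooth muscle genes (-0.24) or 14 genes of extracellular matrix and septation (-0.08). Abca3, the lipid transporter of surfactant storage in type 2 cells, was at 11.80, 12.46 and 11.99 in KO, against 11.89, 12.24 and 12.32 in WT, a difference of -0.07 ± 0.22 (SE). Among 10 club cell genes the retinal dehydrogenase Aldh1a1 fell, at 11.92, 11.67 and 12.12 in KO, against 13.07, 12.23 and 13.19 in WT (-0.93; adjusted p = 0.018, limma), and among 14 endothelial genes Vwf fell, at 9.97, 10.69 and 10.66 in KO, against 11.25, 11.15 and 11.05 in WT (-0.71; adjusted p = 0.031). Both missed the threshold without KO library 1 or WT library 1, Aldh1a1 also without KO library 2 or WT library 3, and Vwf also without WT library 2. The proteasome (median 0.01 over 14), the respiratory chain (-0.10 over 15), the hypoxia response (-0.03 over 12), the stress response of the endoplasmic reticulum (-0.08 over 15), the cell cycle (0.24 over 20), B cells (-0.22 over 3) and erythroid genes (0.04 over 8) had no member past the threshold.

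The smallest p-values at PND2 did not belong to Nrf2 targets, and the genes named for them here were chosen after their values were seen. Trim12c, a member of the tripartite motif family, was at 9.55, 9.49 and 9.44 in KO, against 4.11, 4.12 and 4.21 in WT, a 40.7-fold rise (adjusted p = 3.4e-20, limma). WT lungs were at the floor of the scale for this probe set, so the size of the rise depends on the added constant. The gene has another probe set with a higher mean level, which was also called. Itga4, the alpha 4 integrin chain, was at 9.16, 9.07 and 9.20 in KO, against 5.23, 6.01 and 6.08 in WT (3.37; adjusted p = 1.1e-17), with 2 of its 5 probe sets higher. Rbm45, an RNA-binding protein whose gene lies near Nfe2l2 on chromosome 2, was at 10.85, 11.02 and 10.86 in KO, against 7.61, 7.82 and 7.31 in WT (3.33 ± 0.25, SE; adjusted p = 2.8e-14). C1galt1, a galactosyltransferase of O-glycan synthesis, was at 10.13, 9.99 and 9.57 in KO, against 7.37, 7.40 and 7.43 in WT, with all 3 of its probe sets higher. In each of these genes every KO library lay far above every WT library, and KO library 2 did not stand apart from the other KO libraries.

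**Figure D3:**
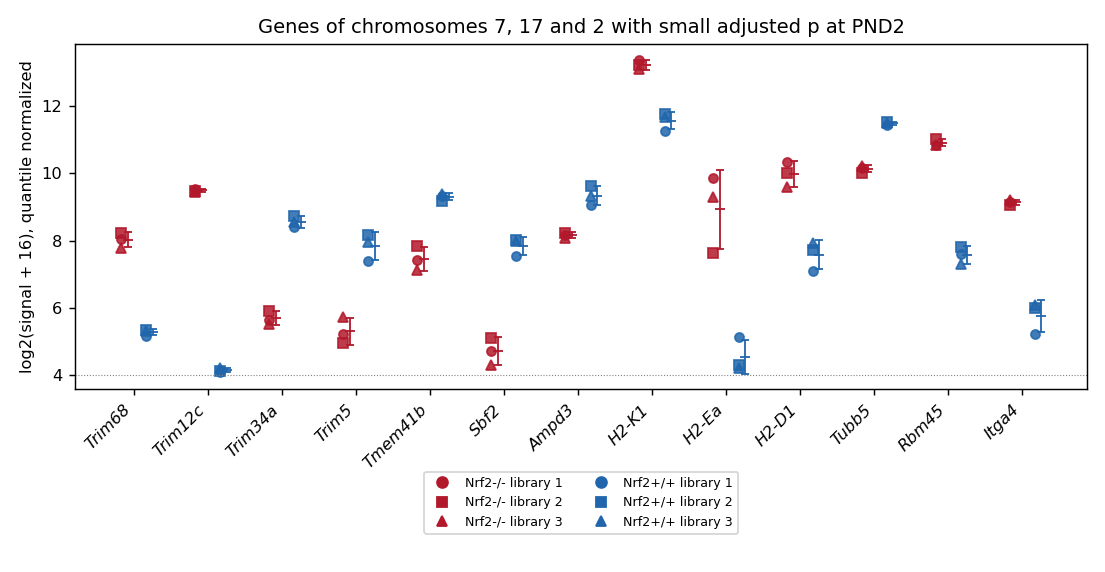
Level, log2(signal + 16), of 13 genes with small adjusted p-values on chromosomes 7, 17 and 2, in each PND2 library, with KO (Nrf2-/-) points left of WT (Nrf2+/+) points and bars for mean ± SD of 3 libraries. Trim12c lies between 9.44 and 9.55 in KO and between 4.11 and 4.21 in WT, and Trim34a, Trim5, Tmem41b, Sbf2, Ampd3 and Tubb5 lie lower in KO.

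Some of these genes lie close to each other in the GRCm38.p6 gene order, again seen after the fact. From Trim68 to Ampd3 on chromosome 7, 12 of 77 measured genes were called (15.6%), and 7 of them changed 2-fold or more (9.09%). From H2-K1 to Tubb5 on chromosome 17, 19 of 90 genes were called (21.1%) and 8 changed 2-fold or more (8.89%). Of the 100 measured genes nearest Nfe2l2, 11 were called (11.0%) and 2 changed 2-fold (2.00%). All these shares count each gene by 1 probe set, the one with the highest mean level. Itga4, also on chromosome 2, is not among the 11, although the probe set named above rose. Over all 18020 placed genes 5.97% were called and 1.38% changed 2-fold or more, and by chromosome the share ran from 4.18% on chromosome 12 to 9.35% on chromosome 17. Where each run begins and ends was chosen from these values, so the shares carry no test.

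On chromosome 7 neighbours moved in opposite directions. Trim68 was at 8.06, 8.23 and 7.80 in KO, against 5.18, 5.36 and 5.31 in WT, a 6.73-fold rise. Trim34a was at 5.66, 5.92 and 5.53 in KO, against 8.40, 8.74 and 8.55 in WT, a 7.24-fold fall, while its other probe set was called higher. Trim5 fell 5.81-fold, Tmem41b 3.58-fold, the phosphatase-like Sbf2 8.79-fold, with KO levels near the floor, and Ampd3, the AMP deaminase of red cells, 2.25-fold. The Trim genes of this cluster are near-identical in part, and their probe sets may bind more than 1 of them.

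On chromosome 17 the class I antigens H2-K1 and H2-D1, which present peptides to CD8 T cells, rose. H2-K1 was at 13.38, 13.21 and 13.09 in KO, against 11.27, 11.76 and 11.68 in WT, with all 4 of its probe sets higher. H2-D1 was at 10.35, 10.02 and 9.59 in KO, against 7.10, 7.73 and 7.93 in WT, with 5 of its 9 probe sets higher. H2-Ea, a class II chain, was at 9.86, 7.63 and 9.30 in KO, against 5.13, 4.31 and 4.23 in WT, and its KO libraries took the order of the thymocyte list. The class I genes are members of a family of close copies, so the share of each is uncertain. Tubb5, a beta tubulin, fell 2.56-fold on this probe set, at 10.16, 10.02 and 10.23 in KO, against 11.45, 11.54 and 11.49 in WT, while its other probe set was not called.

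The pattern over age of these genes is given here and that of the targets further below, and the difference between the patterns was not tested. The other ages use other mice of both genotypes. Trim12c differed by 4.90 at PND1, 5.35 at PND2, 4.65 at PND3 and 4.21 at PND4, and by -0.22 to 0.46 at the 7 other ages. Itga4 differed by 3.13 to 3.38 at these 4 ages and by -1.45 to -0.54 at the 7 others. Trim34a differed by -2.86 to -2.12 at the 4 ages and by -0.94 to 0.52 at the others. Of the 29 genes named for their small p-values at PND2 other than Nfe2l2, 28 had the same sign at PND1, PND3 and PND4, and 21 had at least 50% of their PND2 difference at each of those 3 ages. Signed by the PND2 direction, their median difference was 1.81 at PND1, 1.84 at PND2, 1.77 at PND3 and 1.5 at PND4, and between -0.06 and 0.11 at each of the other ages. Of the 29, 5 reached 50% of their PND2 difference at 1 or more of the 7 other ages, Klf12, Nlk, Plcb1, Rbis and Rbm45. Rbm45, beside Nfe2l2, did so at 3 of them and ran from 0.53 to 2.82.

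The 24 arrays of PND1 to PND4 also stand apart in the deposited table. Their 2% trimmed means ran from 171.70 to 307.14, while those of the other 42 arrays were all 500, so the arrays of these 4 ages were scaled in another way. Each of the 2 sets holds both genotypes at every one of its ages, and the comparison at PND2 lies within 1 set. Normalizing the 24 arrays among themselves gave 2903 calls at PND2.

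**Figure D4:**
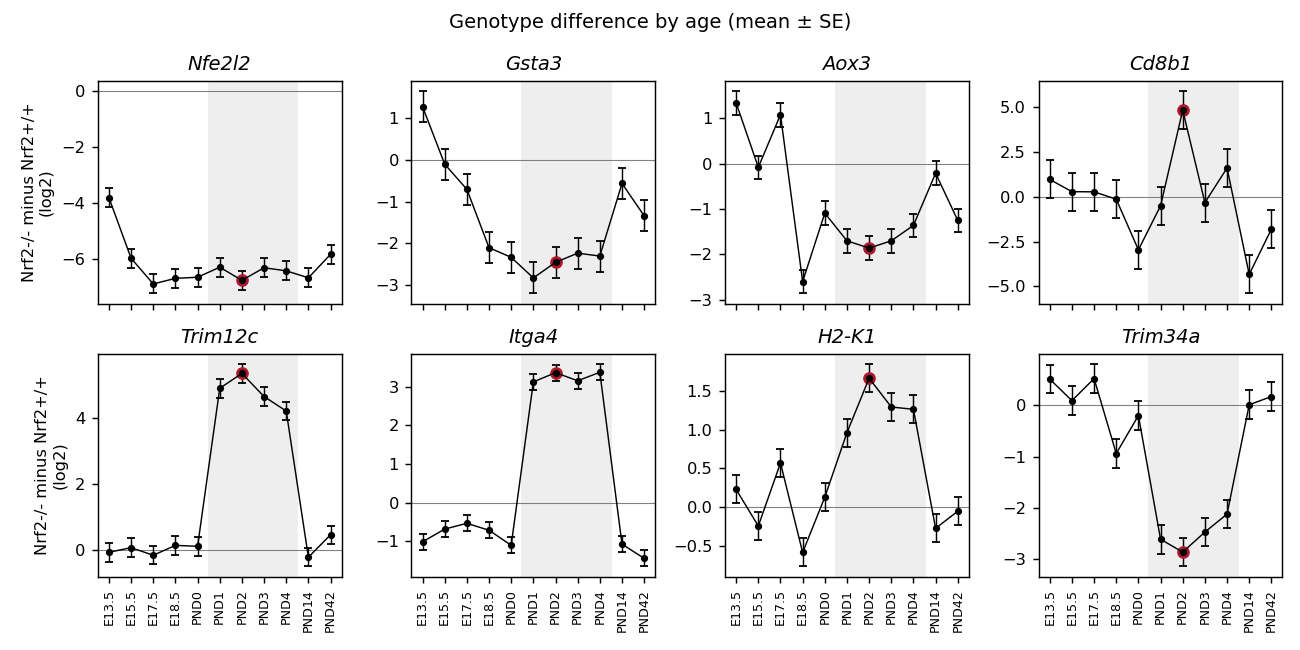
Difference KO minus WT (log2, mean ± SE from the shared model) of 8 genes at 11 ages, with PND1 to PND4 shaded and PND2 in red. Nfe2l2 is negative throughout, Gsta3 and Aox3 are negative at all postnatal ages, Cd8b1 peaks at 4.82 at PND2, and Trim12c, Itga4, H2-K1 and Trim34a have their largest differences within the shaded ages.

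The Nrf2 targets that fell at PND2 were lower at the adjacent ages as well, without exception among the 9. Gsta3 differed by -2.82 at PND1, -2.45 at PND2, -2.23 at PND3 and -2.30 at PND4, and Aox3 by -1.70, -1.86, -1.70 and -1.36 at the same ages. The test of the difference between ages, PND2 minus the mean of PND1, PND3 and PND4, gave -0.00 ± 0.43 for Gsta3, -0.28 ± 0.30 for Aox3 and -0.56 ± 0.50 for Gpx2, none near the threshold. Nqo1 had -0.73, 0.20, -0.35 and -0.23 at PND1 to PND4, and its PND2 value was not separated from the rest (0.64 ± 0.24; adjusted p = 0.3, limma).

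That test, run over all probe sets, called 59 of 45037 (0.131%), 35 higher at PND2 and 24 lower (4641 at an unadjusted p under 0.05). The count hung on single libraries of PND2: it was 5 without KO library 1, 11 without WT library 2, 23 without WT library 1 and 539 without KO library 2. It was 26 to 92 without 1 library of the adjacent ages. The 8 largest positive differences were those of Prss16, Bcl11b, Cd4, Cxcl11, Trgv4, Lef1, H2-Q2 and Cmah. Bcl11b, a transcription factor of T-cell commitment, was at 11.91, 8.17 and 10.92 in KO, against 6.92, 6.31 and 5.91 in WT, and differed by -0.79 at PND1, -1.32 at PND3 and 1.49 at PND4. Lef1, a partner of beta-catenin in early T cells, was at 10.83, 7.90 and 10.32 in KO, against 7.03, 7.35 and 6.89 in WT. All 8 had KO library 2 as the lowest KO library, as the thymocyte list had, and the count was 1 with the thymocyte and liver list means as covariates.

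The 8 largest negative differences from the adjacent ages were those of Sh3pxd2b, Rnf182, Nudt5, Ppp2cb, Cald1, Rtn4, Tmtc3 and Sardh. The levels given are those of single probe sets. With 1 probe set per gene, the one with the highest mean level, the test called 13 genes higher and 2 lower. Over all probe sets it called 35 higher and 24 lower. Sh3pxd2b, a scaffold protein of podosomes, was at 5.51, 5.69 and 5.58 in KO, against 7.49, 7.67 and 8.05 in WT, a fall of 4.42-fold at PND2, with differences of 0.20 at PND1, -0.88 at PND3 and 0.43 at PND4. Nudt5, which hydrolyses ADP-ribose, was at 4.93, 5.18 and 5.25 in KO, against 6.36, 6.51 and 6.04 in WT, with positive differences at the 3 other ages. Rtn4, the reticulon that forms endoplasmic reticulum tubules, was at 6.33, 6.86 and 6.42 in KO, against 7.97, 8.11 and 8.0 in WT, and 3 of its 5 probe sets were lower. Cald1, a binding protein of actin and myosin, was lower at 1 of 5 probe sets and Tmtc3 at 1 of 4, so the probe sets of these genes disagreed. None of the 8 is on the tissue or target lists.

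**Figure D5:**
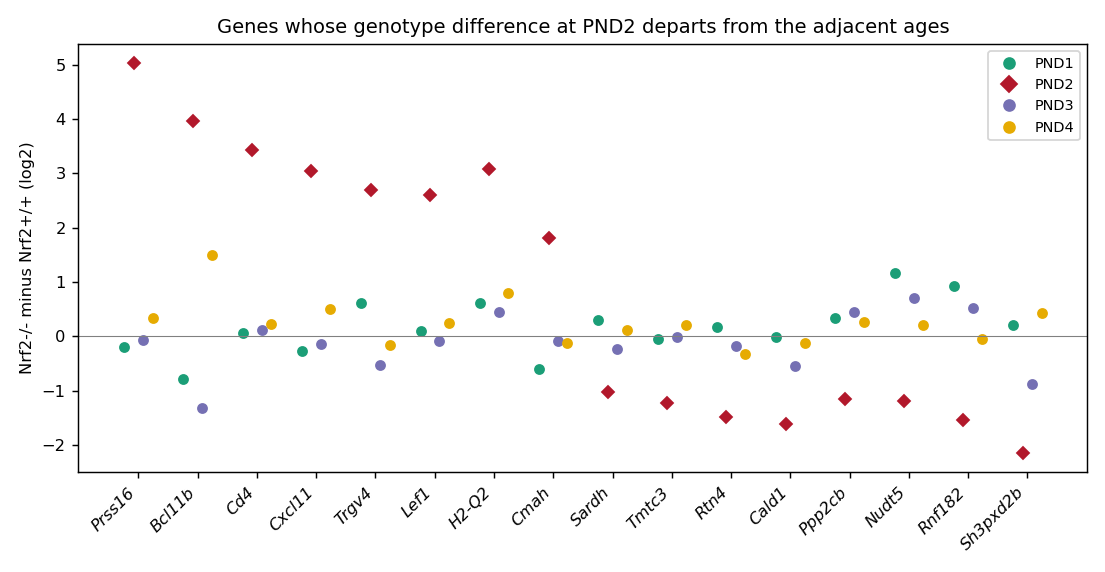
Difference KO minus WT (log2) at PND1, PND2 (red diamonds), PND3 and PND4 for the 8 largest positive and the 8 largest negative genes in the test of PND2 against the adjacent ages. The positive genes run from Prss16 (4.99 above the mean of the other ages) to Cmah (2.08) and the negative ones reach Sh3pxd2b (-2.06).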

How the data were processed

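RNA of homogenized mouse lung was hybridised to Affymetrix arrays, and the authors deposited a linear intensity for each probe set. The submitters' processing notes name GCOS as the software. The deposited intensity scale differed between the arrays of PND1 to PND4 and the rest. The 66 arrays were quantile normalized, 16 was added and log2 taken. limma 3.58.1 in R 4.3.3 fitted 22 group means with an intensity trend (44 residual degrees of freedom). Benjamini-Hochberg adjustment ran over 45037 probe sets, at 0.05, two-sided; 64 control probe sets were left out. Gene symbols came from the platform annotation, updated by Entrez number to GRCm38.p6: 34945 probe sets had 1 symbol, 932 several and 9160 none. A listed gene was represented by its probe set with the highest mean. Named genes were the 15 largest rises and falls with groups apart, the 8 largest differences from adjacent ages, and passing or defining list members. The members and lists were chosen with earlier results of these data known. Each library is 1 lung, per the labels' protocol, and litters are not given in the sources used here. Libraries correlated at 0.933 to 0.972, and none was a duplicate. Array number limits the precision. Drawings used matplotlib 3.10.9 in Python 3.11.15.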

Additional observations from a re-analysis of the deposited data

Results flagged for a closer look

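The genotype difference at PND2 departed from that of the adjacent postnatal ages at 59 probe sets by the test of the difference itself (limma, adjusted over all probe sets). The value given for each gene is the log2 difference KO minus WT at PND2 minus the mean of those at PND1, PND3 and PND4.

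Above the adjacent ages were Prss16 (4.99), Bcl11b (4.16), Cd4 (3.29), Cxcl11 (3.02), Trgv4 (2.71), Lef1 (2.50), H2-Q2 (2.46) and Cmah (2.08). Below them were Sh3pxd2b (-2.06), Rnf182 (-2.00), Nudt5 (-1.87), Ppp2cb (-1.51), Cald1 (-1.40), Rtn4 (-1.38), Tmtc3 (-1.28) and Sardh (-1.10). Groups of 3 libraries are too small for the test of single outlying samples, which was not run.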

How the results depend on the processing

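The 2683 probe sets called at PND2 became 1410 on deposited signals, 1316 after subtracting array medians, 1092 with 1 probe set per gene (fewer features tested), 36 on the 6 PND2 arrays alone (fewer samples), and 929 to 2903 without 1 PND2 library. With alternatives chosen after seeing the data it was 815 with 5 tissue list means as covariates, 565 without KO libraries 1 and 3, 1654 without KO library 3 and WT library 2, and 186 without WT libraries 1 and 2. The 59 departures from adjacent ages became 1 on deposited signals, 12 after subtracting medians, 25 at a common trimmed mean, 89 with pseudocount 64, 95 without dim probe sets, 30 with no intensity trend, 139 with array weights, 119 on the 24 arrays of PND1 to PND4, 15 with 1 probe set per gene, 1 with thymocyte and liver means, 31 with the Gapdh ratio, 0 with 5 tissue means (limma; 3695 at an unadjusted p under 0.05), 4 without KO libraries 1 and 3, and 5 to 539 without 1 library. The 9 falling Nrf2 targets became 4 after subtracting medians, 1 on 6 arrays, 3 with 5 tissue means, 5 without KO libraries 1 and 3, 3 without WT libraries 1 and 2, and 6 to 11 without 1 library. Among adjacent-age libraries the 59 became 27, 37 and 35 without KO library 2, WT library 2 or WT library 3 of PND1. The count was 27, 34 and 28 without KO library 2, KO library 3 or WT library 1 of PND3. For PND4 it was 39, 26, 92, 27 and 32 without KO library 1, KO library 2, WT library 1, WT library 2 or WT library 3. Without 1 of the remaining libraries of these ages it was 40 to 74.

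Of 101 called genes or probe sets followed, 20 kept their call in every alternative that tested them, and the direction turned only where the call was lost: with thymocyte and liver means, partly built from the same genes, Arpp21 (-0.09), Cd3g (-0.26), Rag1 (-0.34), Rag2 (-0.43) and Themis (-0.30); with 5 tissue means Fkbp5 (-0.08), Rag1 (-0.27), Rag2 (-0.99) and Themis (-0.52); and without WT libraries 1 and 2 Cd1d1 (0.01). For all other settings the cause was not tested. The replicate block, whose numbers do not pair the KO and WT libraries (correlations of deviations 0.06, 0.02 and -0.12), gave 2711 and 60 calls, 10 falling targets, and changed none of the 101 calls. Levels near the floor of 4 have compressed differences, and no scan date or slide was used.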

Other observations

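Probe sets with no gene symbol made up 35.7% of those called lower in KO lungs at PND2 (520) and 8.16% of those called higher (100), against 20.3% of all those tested.

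Xist, the X-inactivation transcript, was at 6.45, 11.77 and 12.49 in KO, against 12.73, 12.69 and 8.08 in WT, and the Y-linked Eif2s3y at 10.49, 6.55 and 4.14 in KO, against 4.91, 4.24 and 10.63 in WT. KO library 1 and WT library 3 thus had the pattern of male tissue, and Eif2s3y of KO library 2 lay between the levels of the others. The 3' to 5' log2 signal ratio of the Gapdh control was -0.34, -0.40 and -0.41 in KO, against -0.27, -0.29 and -0.24 in WT, so the groups did not overlap.

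Of the genes beside Nfe2l2 on chromosome 2, 18 were measured, with 1 probe set each. Among them 2 rose and 2 fell, beside 3.11% higher and 2.84% lower among all genes. Apart from Rbm45, the rise of Agps (0.37) and the falls of Osbpl6 (-0.64) and Itgav (-0.48) were small, and each missed the threshold without KO library 1. Itga4, also on chromosome 2, rose by 3.37 on the probe set named above and is not among these calls.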
